A study of Homo sapiens with 18 samples.

Results

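The effect of triptolide (TPL) common to both cell states was measured by setting all 4 TPL RNA-Seq libraries (NT + TPL and TAM + TPL) against all 4 DMSO libraries (NT and TAM), with the cell state as a covariate and no interaction term. These 8 libraries, of 18 samples in the series, were chosen by treatment and assay alone. They come from MCF10A-ErSrc, a human breast epithelial line in which the v-Src kinase is fused to the ligand-binding domain of the oestrogen receptor, so that tamoxifen switches the kinase on. Cells without tamoxifen are called NT, and cells transformed with it TAM. Both were incubated for 4 h with DMSO, the solvent, or with a single concentration of TPL, with 2 biological replicates per group. All 8 cultures carry the ErSrc fusion and belong to 1 line. The other samples are 8 RNAPII ChIP-Seq samples and 2 inputs, whose promoter peak lists are used as a second readout.

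TPL is a plant diterpenoid that binds XPB, the ATPase of the general transcription factor TFIIH. TFIIH opens promoter DNA and, through its CDK7 kinase, phosphorylates RNA polymerase II (RNAPII) so that it can leave the promoter. Where initiation is blocked, a messenger RNA disappears at the pace of its own decay. The mRNAs of immediate early factors and cytokines are known to be short-lived, and those of ribosomal proteins long-lived.

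The libraries held between 7461309 and 8349448 expected counts, which are RSEM's estimates of reads per gene. Of 23604 entries listed, 16948 passed the filter on low counts and were tested. In the TPL libraries 15547 ± 149 genes reached 10 counts, against 14678 ± 42.0 in DMSO (mean ± SD, n = 4 each). The difference of 870 genes had a two-sided exact permutation p of 0.0286, the smallest that the 70 splits of 8 libraries allow. These splits took no account of the cell state. The difference was 977.5 genes once the libraries were thinned to the same total. Each of 11 markers of basal breast epithelium had a median of at least 1 FPKM (fragments per kilobase of transcript, scaled to the library, a level per length). So did 5 of 7 luminal markers and 2 of 6 fibroblast markers, DCN and COL1A1, with medians of 4.88 and 1.70 FPKM. Of endothelial markers PECAM1 had between 0.46 and 1.69 FPKM, KDR between 0.17 and 0.72 and VWF at most 0.04. Since RNA-Seq gives each gene's share of its library, a loss of RNA common to all genes cannot be read from these values, nor can fewer cells be told apart from less RNA per cell.

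More genes were called lower with TPL than higher. With an adjusted p no higher than 0.001 and a change of 1.2 or more on the log2 scale (edgeR quasi-likelihood test, Benjamini-Hochberg adjustment), 1110 genes were called lower and 573 higher, which are 6.55% and 3.38% of those tested and 9.93% in all. Rises were thus 34.0% of the calls, a share that depends on the scaling: it was 52.7% with upper quartile scaling and 20.6% with equal GAPDH levels, as the median over all genes moved on the log2 scale from 0.08 to 0.31 and to -0.16. It was 48.5% with DESeq2, which called 1562 genes higher and 1661 lower. The 4 TPL libraries lay wholly above the 4 DMSO libraries for 3455 genes (20.4%) and wholly below for 3710 (21.9%), in counts after scaling. Among the calls, 561 of 573 rises and 1098 of 1110 falls had no overlap between the groups. The rises were the larger changes. Their median log2 fold change was 2.44, and 206 of them (36.0%) reached 8-fold, against a median of -1.83 and 113 genes (10.2%) among the falls.

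The genes that rose and those that fell started from different levels. The median DMSO level was 1.36 FPKM in the genes called higher and 15.6 FPKM in those called lower, beside 4.89 FPKM over all genes tested. With TPL the medians were 7.42 and 4.55 FPKM. Under 1 FPKM in DMSO lay 254 of the rises (44.3%) and 3 of the falls (0.27%), against 20.9% of all genes. In 81 of the rises each DMSO library held at most 3 counts, so that the fitted change depends on the prior count. With these genes set to their bound against 3 counts, the median of the rises stayed at 2.44 and 194 of them reached 8-fold. A fall from such a level could not have been detected at this depth, and the share of genes called lower grew from 0.531% in the lowest of 5 equal bins of mean level to 10.8% in the bin below the highest.

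**Figure D1:**
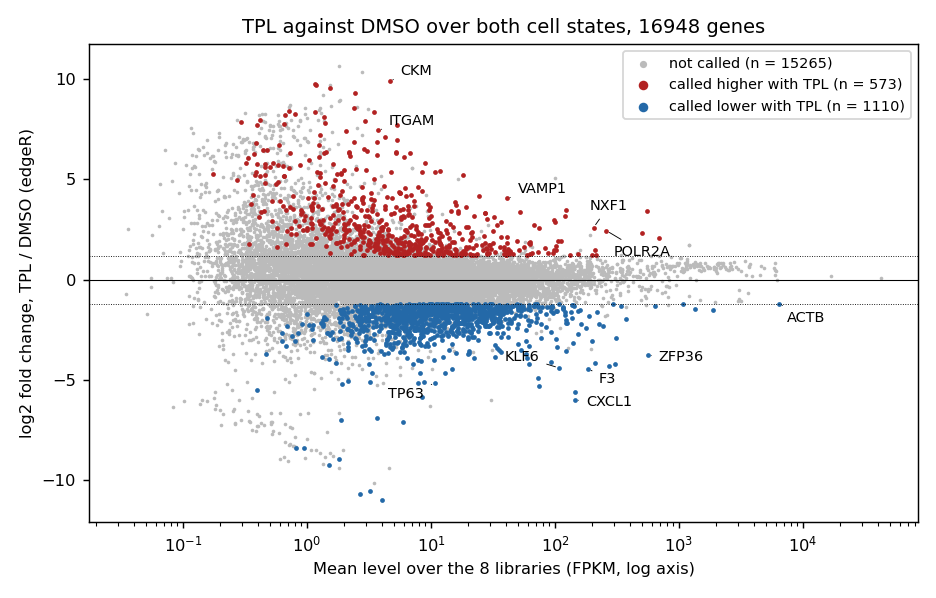
Log2 fold change of TPL against DMSO (y) by mean level over the 8 libraries in FPKM (x, log axis), 1 point per gene tested, with dotted lines at the 1.2 threshold in both directions. The 573 genes called higher (red) are spread over the levels, with 87 in the lowest of 5 equal bins of mean level and 93 in the highest. ACTB, ZFP36, CXCL1 and F3 stand at the high end among the 1110 called lower (blue).

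NF-kB targets, chemokines and cytokines had the lowest median of the 24 lists. Of 27 members 22 were tested, and 11 (50%) were called lower and 0 higher, beside 6.55% and 3.38% of all genes. The median log2 fold change was -2.56 beside 0.08 over all genes. The rest of the tested members had 2 genes with all TPL libraries above all DMSO libraries, as did 20.4% of all genes. These were TNFAIP2 and NFKB2, neither of them called. CXCL1, a neutrophil-attracting chemokine (chr4:74735110-74737025, hg19, plus strand), had 142 and 149 FPKM in NT, 418 and 432 in TAM, 4.32 and 1.35 in NT + TPL, and 8.06 and 3.48 in TAM + TPL. TAM cells had the higher DMSO level, and each TPL library was far below both states. Its log2 fold change was -6.01 (SE 0.363; edgeR adjusted p = 2.05e-05). CXCL2 and CXCL3, its close relatives on the same chromosome, fell by 5.59 and 5.30 on the log2 scale. The 3 genes are alike in sequence, so reads may be split unevenly between them.

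The promoters of CXCL1 and CXCL3 are shown because both hold a match to the NF-kB-like motif GGGNNTTTC at the same distance, 79 bases before the start. RefSeq gives them on GRCh38.p14, CXCL1 at chr4:73869143-73869442 on the plus strand and CXCL3 at chr4:74038640-74038939 on the minus strand, from 250 bases before to 50 bases after the start. Capitals mark GGGNNTTTC and GGGCGG, the GC box, each searched on both strands.
CXCL1: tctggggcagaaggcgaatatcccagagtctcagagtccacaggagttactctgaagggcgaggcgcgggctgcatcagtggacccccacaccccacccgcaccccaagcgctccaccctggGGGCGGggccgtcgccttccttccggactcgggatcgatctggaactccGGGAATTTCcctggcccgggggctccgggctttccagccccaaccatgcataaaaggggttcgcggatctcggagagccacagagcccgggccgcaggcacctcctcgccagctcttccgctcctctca
CXCL3: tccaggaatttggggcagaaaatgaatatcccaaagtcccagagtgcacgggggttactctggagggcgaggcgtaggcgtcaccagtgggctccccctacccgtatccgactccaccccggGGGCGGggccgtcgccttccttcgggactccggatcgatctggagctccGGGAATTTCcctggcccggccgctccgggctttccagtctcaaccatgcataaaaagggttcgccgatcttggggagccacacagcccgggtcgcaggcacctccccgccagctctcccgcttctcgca
GGGNNTTTC occurs in 4.73% and GGGCGG in 44.6% of the 27305 promoters of that table. Among the 13215 tested genes with a promoter there, GGGNNTTTC occurred in 4.65% and GGGCGG in 66.4%, so the GC box is common among them. CXCL2 also holds the former. A match is a description of letters and no proof of a bound site.

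Other secreted signals and their regulators followed. CXCL8, another neutrophil chemokine, stood at 41.6 and 39.2 FPKM in NT, 82.2 and 83.3 in TAM, 3.49 and 2.16 in NT + TPL and 6.23 and 5.50 in TAM + TPL. CSF3, the granulocyte growth factor, went from 31.6 and 32.3 FPKM in NT and 255 and 240 in TAM to 1.55 and 0.75 in NT + TPL and 9.93 and 6.72 in TAM + TPL. In both genes the TAM libraries were above the NT libraries with either agent, and their log2 fold changes of -3.86 and -4.89 had SEs of 0.145 and 0.204. NFKBIA, the inhibitor that holds NF-kB in the cytoplasm, fell by 3.07 and TNFAIP3, a ubiquitin-editing brake on NF-kB, by 2.57 on the log2 scale. IL1A and IL1B, NFKBIZ and the adhesion molecule ICAM1 complete the 11. At the other end of the list, IL11 and NFKBIE had log2 fold changes of 0.23 and 0.26 with edgeR adjusted p = 0.589 and 0.524.

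Immediate early genes moved in both directions. Of 26 immediate early and AP-1 factors, 9 (34.6%) were called lower and 3 (11.5%) higher, beside 6.55% and 3.38% of all genes. The median log2 fold change was -1.19. FOS, the partner of JUN in AP-1, had 503 and 576 FPKM in NT, 555 and 454 in TAM, 33.6 and 26.7 in NT + TPL, and 21.8 and 26.8 in TAM + TPL. KLF6, a zinc finger factor induced by stress and growth signals, had between 184 and 215 FPKM in DMSO and between 7.60 and 11.7 in TPL. The 2 states overlapped in DMSO for both genes, and their log2 fold changes of -4.30 (SE 0.148) and -4.40 (SE 0.145) had an edgeR adjusted p of 8.79e-06 each. JUN, FOSB, JUNB, JUND, FOSL1, IER2 and NR4A2 fell as well, by between 1.26 and 2.96 on the log2 scale.

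EGR3, NR4A3 and IER5 went the other way. EGR3, an early growth response factor, was at 0.81 and 0.91 FPKM in NT and 0.15 and 0.09 in TAM, and rose to 12.8 and 5.87 in NT + TPL and 3.92 and 3.32 in TAM + TPL. IER5, at 19.6 to 36.1 FPKM in DMSO, reached 70.3 to 107 FPKM in TPL. NR4A3, an orphan nuclear receptor, had a log2 fold change of 4.96 from levels of at most 0.23 FPKM. MYC, the growth-promoting factor, was lower in each TPL library, at no more than 36.3 FPKM, than in each DMSO library, at 148 to 623 FPKM, yet its adjusted p of 0.00163 (edgeR) missed the threshold. Its DMSO level differed between NT and TAM, 532 and 623 against 154 and 148 FPKM. MAFK and KLF4 had log2 fold changes of -0.17 and 0.19 with edgeR adjusted p = 0.327 and 0.377.

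Among factors of mRNA decay and feedback regulators of ERK, 22.7% and 29.4% were called lower, beside 6.55% of all genes. Called higher was 1 member of each, which is 4.55% and 5.88%, near the 3.38% of all genes. ZFP36, which binds AU-rich elements and speeds mRNA decay, had 975 and 959 FPKM in NT, 1205 and 1011 in TAM, 78.4 and 43.8 in NT + TPL, and 101 and 92.1 in TAM + TPL. Its relatives ZFP36L1 and ZFP36L2 fell by 4.14 and 3.20 on the log2 scale, against 3.79 for ZFP36 itself. Of 22 decay factors 5 were called lower, the other 2 being HNRNPD and CNOT2, and 1 higher, the deadenylase subunit PAN2 (log2 fold change 1.31). Among 17 feedback regulators of the ERK pathway 5 fell and 1 rose. DUSP1, a phosphatase that inactivates MAP kinases, went from 534 to 621 FPKM in DMSO to 21.4 to 40.0 in TPL (log2 fold change -4.22, SE 0.202). DUSP4, DUSP6, DUSP7 and SPRY1 also fell, while DUSP5, a nuclear phosphatase for ERK, rose from between 3.93 and 9.66 FPKM to between 18.9 and 31.0 (log2 fold change 1.88). The medians of the decay and ERK lists were -0.80 and -0.61.

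F3, tissue factor, which starts blood clotting, was the most abundant of the 12 largest falls. It stood at 392 and 456 FPKM in NT, 265 and 296 in TAM, 11.2 and 16.7 in NT + TPL and 20.9 and 16.5 in TAM + TPL, with a log2 fold change of -4.44 (SE 0.270; edgeR adjusted p = 2.14e-05). The RefSeq promoter of F3 (GRCh38.p14, chr1:94541710-94542009, minus strand) is shown for the number of motif types it holds, with capitals for TATAAA, the AP-1-like TGANTCA and GGGCGG on either strand.
F3: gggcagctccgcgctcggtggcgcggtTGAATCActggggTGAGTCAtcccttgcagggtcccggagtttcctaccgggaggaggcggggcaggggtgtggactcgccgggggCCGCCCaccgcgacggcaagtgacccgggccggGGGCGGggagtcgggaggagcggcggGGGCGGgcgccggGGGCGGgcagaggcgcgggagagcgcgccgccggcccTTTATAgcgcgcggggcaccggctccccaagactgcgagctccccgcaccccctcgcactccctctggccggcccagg
TATAAA begins 28 bases before the start. TATAAA occurs in 11.95% and TGANTCA in 7.76% of the promoters in the table. Among the 13215 tested genes with a promoter there, the shares were 6.42% and 5.10%.

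Other large falls were in transcription factors and in genes of growth and adhesion. TP63, the master factor of basal epithelium, had 13.2 and 23.6 FPKM in NT, 24.2 and 23.0 in TAM, 0.64 and 0.28 in NT + TPL and 0.89 and 0.58 in TAM + TPL. The first NT library was the low one among the 4 DMSO libraries, and it remained far above each TPL library. OVOL2, a zinc finger factor that holds cells in the epithelial state, went from between 4.40 and 8.05 FPKM to between 0 and 0.67. FOXF2, a forkhead factor, went from between 13.2 and 16.4 FPKM to between 0.24 and 0.59, a log2 fold change of -5.16 (SE 0.246). Falls of similar size were seen in CDCA7, a MYC-responsive nuclear protein, GAS1, a growth arrest protein of the cell surface, and RIN2, an exchange factor for RAB5. Their log2 fold changes were -4.65, -4.65 and -4.66. TRIM47, a ubiquitin ligase, fell by 4.44.

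Some of the highest messages of the cells were also reduced. ACTB, cytoplasmic actin, had 9202 and 8629 FPKM in NT, 8504 and 9155 in TAM, 3844 and 2895 in NT + TPL and 4955 and 4173 in TAM + TPL. Each TPL library was below each DMSO library, but the log2 fold change of -1.21 lay just past the threshold. ACTB kept its call in 2 of 8 fits with a library left out. Over all alternative fits its log2 fold change lay between -1.45 and -0.98, in part short of the threshold. HSPA8, the constitutive HSC70 chaperone, MT1E, a metallothionein that binds zinc, and TUBA1C, an alpha tubulin, fell by 1.48, 1.52 and 1.97 on the log2 scale. These 4 belong to families with near-identical copies, so their counts are uncertain. TNS4, a focal adhesion protein, fell from between 325 and 789 FPKM to between 48.7 and 122. Of 12 reference genes ACTB and TUBB were called lower (-1.21 and -2.21) and 0 higher. The falls were 16.7% of the list, beside 6.55% of all genes. PPIA and HPRT1 had log2 fold changes of 0.09 and 0.04.

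The largest rises came from genes that were silent or nearly so in DMSO. CKM, muscle creatine kinase, had 0 FPKM in each DMSO library, 12.9 and 14.2 in NT + TPL and 6.43 and 3.54 in TAM + TPL, which is at least 42.2-fold higher against a floor of 3 counts per library. DNAJB5-DT, a long noncoding RNA divergent to DNAJB5, was also at 0 in DMSO and at 4.92 to 9.37 FPKM in TPL, at least 14.0-fold higher. ITGAM, the integrin alpha M of myeloid cells (chr16:31271296-31344198, hg19), had between 0.02 and 0.05 FPKM in DMSO, 6.16 and 5.20 in NT + TPL and 9.82 and 8.50 in TAM + TPL. Its edgeR adjusted p was 8.79e-06. ITGAM is a gene of leukocytes, and PTPRC, the pan-leukocyte marker CD45, had 0.16 to 0.71 FPKM in DMSO and 1.16 to 2.14 in TPL, with no overlap between the groups. The T-cell marker CD3E had at most 0.17 FPKM. The summed level of the 4 leukocyte markers measured was 25.4 to 43.1 FPKM in DMSO and 47.3 to 64.1 in TPL. Most of that sum was LYZ, lysozyme, which had 17.9 to 31.6 FPKM in DMSO and 33.1 to 47.2 in TPL. CD14, the remaining marker, overlapped between the groups. It had 10.9 and 9.18 FPKM in NT and 18.6 and 15.2 in NT + TPL. In TAM cells it had 7.57 and 6.80 FPKM with DMSO and 5.75 and 7.51 with TPL. PTPRC and LYZ were thus higher in each TPL library, and CD14 only in those of NT cells. The part of these markers in the result was not tested.

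With 1 to 3 reads in a DMSO library the fold is a ratio of few counts, whose 95% intervals cover counting error only. For ITGAM, 1102 counts with TPL against 6 with DMSO gave a ratio of 196 (89.8 to 535). For IQCN, an IQ-motif protein, it was 231 (106 to 629), and for MYBPH, a myosin-binding protein, 165 (56.3 to 805). For CXCL14, a chemokine of epithelia, 442 counts against 3 gave 157 (53.5 to 766). SLC6A13, a GABA and taurine transporter, MAFA, a beta-cell transcription factor, and H2BC6, a replication-dependent histone H2B, had ratios of 99.3 (38.4 to 366), 81.4 (39.2 to 204) and 138 (24.3 to 5480). The interval of H2BC6 rests on 1 count in DMSO. PYGM, muscle glycogen phosphorylase, TENT5C, a poly(A) polymerase, and AOC3, an amine oxidase, were each below 0.5 FPKM in DMSO and at 7.43 to 18.2 FPKM in TPL, with log2 fold changes of 6.96, 6.34 and 6.31.

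CXCL14 was the chemokine that rose while CXCL1, CXCL2, CXCL3 and CXCL8 fell. It had 0 FPKM in both NT libraries and the first TAM library, 0.18 in the second TAM library, 11.6 and 10.2 in NT + TPL, and 4.36 and 2.77 in TAM + TPL. Its call held in only 1 of 8 fits with a library left out, though all 4 TPL libraries were above all DMSO libraries. Its RefSeq promoter (GRCh38.p14, chr5:135578942-135579241, minus strand) is shown beside those of the losses, with TGANTCA and GGGCGG in capitals. Adjoining matches run together in the capitals.
CXCL14: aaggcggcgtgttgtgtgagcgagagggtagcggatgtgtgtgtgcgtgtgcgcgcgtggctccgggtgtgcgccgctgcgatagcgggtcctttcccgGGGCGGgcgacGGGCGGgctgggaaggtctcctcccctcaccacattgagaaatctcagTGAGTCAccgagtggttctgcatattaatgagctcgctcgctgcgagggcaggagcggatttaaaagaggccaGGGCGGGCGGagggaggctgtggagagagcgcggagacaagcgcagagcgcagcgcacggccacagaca

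The most abundant of the named protein-coding rises were POLR2A, SLC1A5 and NXF1. POLR2A, the catalytic subunit of RNAPII (chr17:7387685-7417496, hg19), had 71.3 and 78.0 FPKM in NT, 84.4 and 80.2 in TAM, 527 and 268 in NT + TPL and 563 and 398 in TAM + TPL. The DMSO libraries were tightly grouped and the TPL libraries spread over a wider range, all of it higher (log2 fold change 2.45, SE 0.209; edgeR adjusted p = 8.03e-05). Among 12 RNAPII subunits it was the only call (8.33% higher, all genes 3.38%). POLR2H, the next by p, had -0.76, and POLR2L and POLR2I had 0.07 and -0.06. NXF1, the main mRNA export receptor, went from between 50.6 and 69.8 FPKM to between 277 and 385 (log2 fold change 2.60, SE 0.156). INTS6L, a relative of an Integrator subunit, TLE4, a corepressor of the Groucho family, and VAMP1, a vesicle fusion protein, had small errors: their log2 fold changes were 3.62 (SE 0.129), 3.89 (SE 0.141) and 4.05 (SE 0.163). SLC1A5, the glutamine transporter, rose by 1.46 on the log2 scale, from between 82.4 and 140 FPKM to between 276 and 338.

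HEXIM1, which with 7SK RNA holds P-TEFb inactive, was the only call among 23 genes of P-TEFb, 7SK and the BET family. It was higher (4.35% of the list, all genes 3.38%). It stood between 19.2 and 21.4 FPKM in the NT and TAM libraries, at 76.8 and 78.4 in NT + TPL and 79.0 and 78.4 in TAM + TPL. The 4 libraries of a treatment thus lay within a narrow range, and the log2 fold change of 1.93 had an SE of 0.0919. CCNT1, a cyclin of P-TEFb, had 1.07 with an edgeR adjusted p of 0.00161. SUPT4H1 and NELFE, both of the pausing machinery, had 0.00 and -0.06.

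TFIIH, the target of TPL, lost message in 1 of 10 subunits by the calling rule (10%, all genes 6.55%). GTF2H4, the p52 subunit, went from between 10.8 and 15.9 FPKM to between 3.96 and 4.81 (log2 fold change -1.61, SE 0.158; edgeR adjusted p = 0.000146). The median of the 10 was -0.61, and 7 of them were lower at an edgeR adjusted p of at most 0.05, a limit that 25.2% of all genes tested passed with a lower and 24.6% with a higher level. CCNH had -0.88. ERCC3, which encodes XPB, was at 14.2 to 18.1 FPKM in DMSO and 9.68 to 10.7 in TPL (log2 fold change -0.62, edgeR adjusted p = 0.00237). GTF2H3 and GTF2H2 had 0.25 and -0.32.

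Calls among SR proteins and stress-induced factors were all lower. Of 16 SR proteins and CLK kinases 5 were called lower and 0 higher, where all genes had 6.55% and 3.38%. SRSF3, a splicing factor that regulates its own message, had between 79.0 and 86.6 FPKM in DMSO and between 16.2 and 19.3 in TPL (log2 fold change -2.20, SE 0.0994). SRSF7, SRSF6, SRSF2 and SRSF4 were the others, and SRSF11 and CLK3 had -0.06 and -0.04. Of 13 ubiquitin and stress-induced factors 6 (46.2%) fell and 0 rose, with a median of -1.74. They were CEBPD, DDIT4, XBP1, TRIB1, TRIB3 and HIF1A, of which CEBPD, a factor of the acute-phase response, went from between 217 and 232 FPKM to between 11.4 and 30.8, and DDIT4, an inhibitor of mTORC1, from between 58.2 and 66.9 to between 2.79 and 9.08.

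In genes of survival and arrest there was 1 rise and 2 falls in each of 2 lists. These were 6.25% and 12.5% of the BCL2 family list and 4.55% and 9.09% of the p53 list. All genes had 3.38% and 6.55%. In 16 genes of the BCL2 family and short-lived apoptosis inhibitors, BCL2L1, which protects cells from apoptosis, and BAK1, which promotes it, were called lower (-2.39 and -1.50), and PMAIP1, the proapoptotic NOXA, was called higher (2.14). MCL1, an inhibitor with a short-lived message, had -0.69 with an edgeR adjusted p of 0.00401. XIAP and BIK had 0.03 and 0.06. Of 22 p53 targets CDKN1A, the cyclin-dependent kinase inhibitor p21, rose from between 77.6 and 93.1 FPKM to between 143 and 315 (log2 fold change 1.29), and PHLDA3 and AEN fell by 1.98 and 1.60. The sign of the median of both lists turned with the scaling.

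The genes that the study silenced by siRNA were picked from its own TPL data and are not independent evidence of a direction. HEXIM1, CRY2 and LOC730101 of the 5 were called higher (60%, all genes 3.38%). Each had all TPL libraries above all DMSO libraries, as did 20.4% of all genes. CRY2, a repressor of the circadian clock, rose from between 1.75 and 2.56 FPKM to between 8.08 and 10.9. ID2, an inhibitor of helix-loop-helix factors, had a log2 fold change of 2.41 with an edgeR adjusted p of 0.00276, and its DMSO level was 16.5 and 19.4 FPKM in NT but 3.01 and 1.98 in TAM. EPAS1 had 0.77 and an overlap between the groups.

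**Figure D2:**
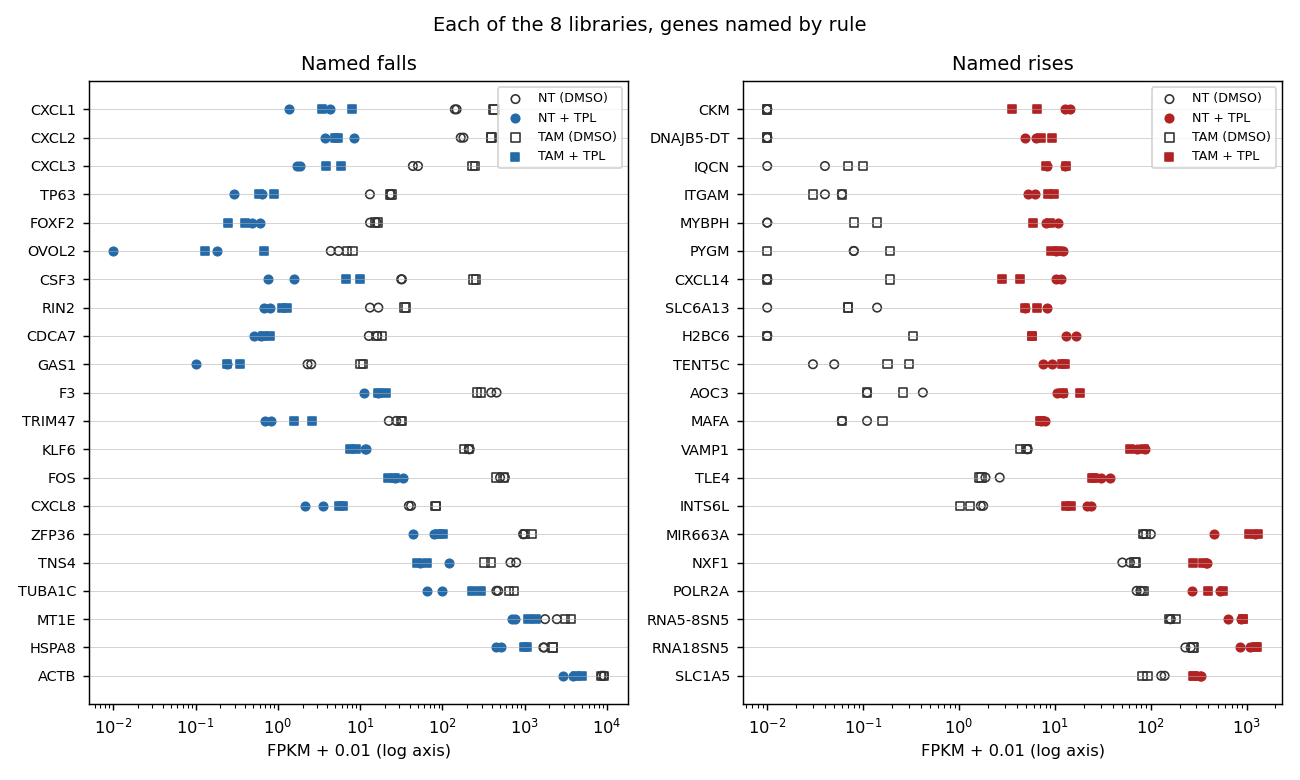
Levels of named genes in each of the 8 libraries (FPKM + 0.01, log axis), open for DMSO and filled for TPL, circles for NT and squares for TAM cells. By the naming rule the TPL points of each gene lie on 1 side of its DMSO points.

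Messages of the ribosome gained share in the TPL libraries. All 79 ribosomal protein mRNAs had a positive log2 fold change, with a median of 0.66, and 72 were higher at an adjusted p of at most 0.05, as were 24.6% of all genes, yet 0 were called. RPS21 had the largest change, 1.24, with an edgeR adjusted p of 0.01. RPLP0 had 0.90 and RPS26 0.10 at the ends of the range of p. The median stayed between 0.43 and 0.89 under the other scalings. Of 34 respiratory chain subunits 29 were positive, with a median of 0.40, and 14 (all genes 24.6%) had an adjusted p of at most 0.05 with a higher level and 0 (25.2%) with a lower one. Histone messages of the replication-dependent kind, which end in a stem-loop and largely lack a poly(A) tail, had a median of 1.26 over 28 tested of 60. H2BC5 and H2BC6 were the 2 called (7.14% higher, all genes 3.38%). Of the 28, 13 had all TPL libraries above all DMSO libraries, as did 20.4% of all genes. Histone genes share much sequence, so single members are uncertain.

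**Figure D3:**
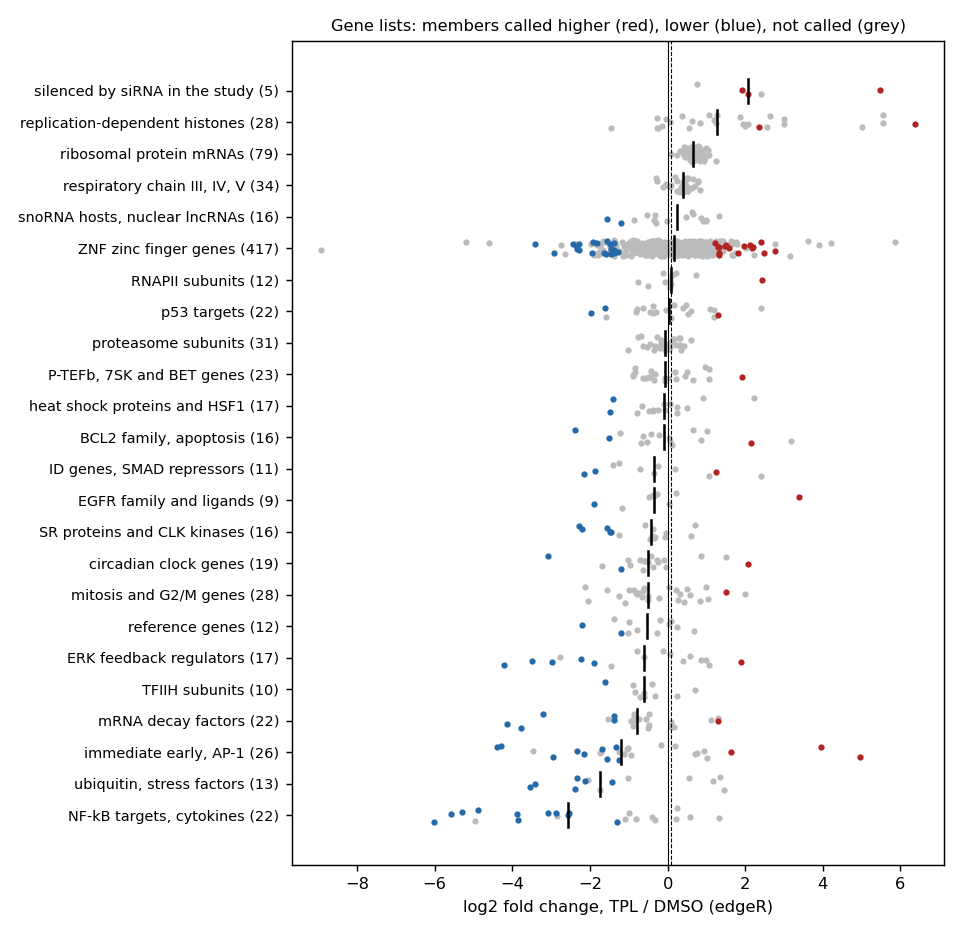
Log2 fold change of TPL against DMSO for each tested member of the gene lists (points, red called higher, blue called lower, grey not called), with a bar at the median of each list and a dashed line at the median of all genes. The NF-kB and stress-factor lists lie lowest, and the ribosomal protein list is a tight group above 0.

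Noncoding genes were 86 of the rises (15.1%) and 19 of the falls (1.71%), beside 12.5% of all genes tested. The share among the rises did not follow the level as it did over all genes. It was 6.90% in the lowest of the 5 bins of mean level and 20.7% in the highest, where all genes had 18.2% and 4.82%. Long noncoding RNAs had a median log2 fold change of 0.77, with 62 called higher and 13 lower of 1555, and protein-coding genes had -0.03, with 484 and 1090 of 14768. These medians were not matched for level. Over all genes the median was 0.66 in the lowest bin, where noncoding genes are most common, and -0.05 in the highest. Poly-A selection leaves some ribosomal RNA, and the entries RNA18SN5 and RNA5-8SN5 rose from 260 ± 21.7 to 1115 ± 193 FPKM and from 165 ± 12.4 to 837 ± 138 FPKM (SD, n = 4). MIR663A, the entry of a microRNA precursor of 93 bases, went from between 83.4 and 100 FPKM to between 453 and 1312. These multi-copy or short entries are uncertain, and how far the selection of RNA differed between the groups was not tested.

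**Figure D4:**
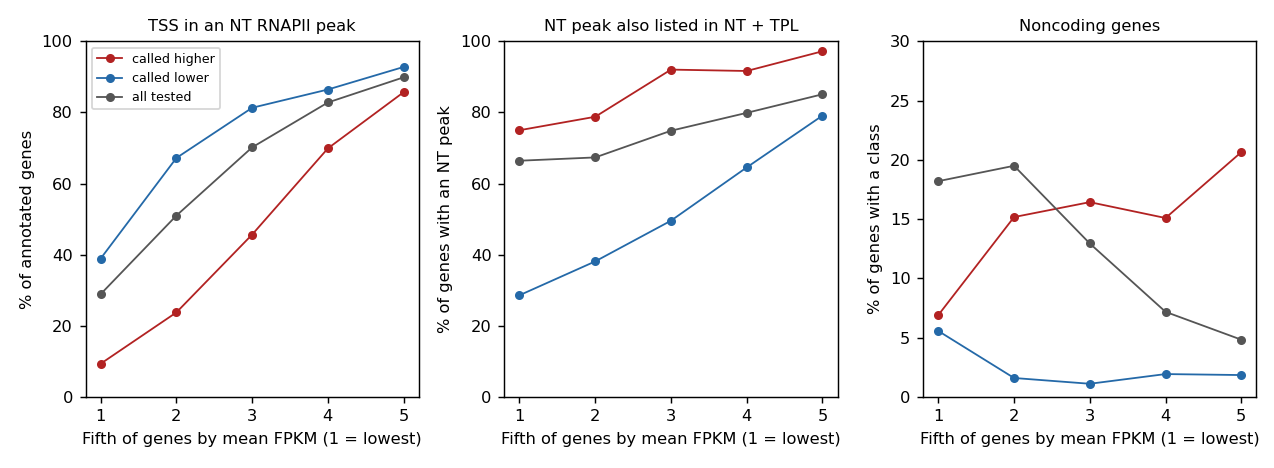
Share of genes with a TSS in an NT RNAPII peak (left), share of those peaks also listed with TPL (middle) and share of noncoding genes (right), in percent, by bin of mean level (5 equal bins, 1 lowest) for genes called higher, called lower and all tested. In each bin the rises kept a larger share of their peaks than the falls, though the lowest holds 8 rises and 7 falls with a peak.

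The RNAPII peak lists gave a separate readout of the same genes. In NT cells the transcription start site (TSS) of 248 of 550 rises lay in a peak (45.1%, Wilson 95% interval 41.0 to 49.3), against 923 of 1098 falls (84.1%, 81.8 to 86.1) and 64.8% of all genes. Of these, 226 rises (91.1%, 86.9 to 94.1) but only 581 falls (62.9%, 59.8 to 66.0) were also in a peak of NT + TPL, where all genes had 77.1%. In the 4 upper bins of mean level the rises kept between 78.8 and 97.2% and the falls between 38.1 and 79.1%, while the lowest bin held only 8 rises and 7 falls with a peak. In TAM cells 87.7% of the rises with a peak and 69.4% of the falls kept it. The intervals cover counting error only. The lists hold 1 set of peaks per group with no height, and the names in the TAM list carry another threshold than the other 3, so loss of a peak in TAM cells cannot be told apart from that. Of the named genes, POLR2A, NXF1, SLC1A5, INTS6L, TLE4, VAMP1 and TENT5C had a peak in all 4 lists, as did FOS, KLF6, ZFP36, ACTB, HSPA8, MT1E, TUBA1C and TNS4, which fell. CXCL1, FOXF2 and TRIM47 had a peak in both DMSO lists and in neither TPL list. No list held a peak for 8 of 18 named rises with an annotated TSS. These were CKM, IQCN, ITGAM, MYBPH, PYGM, CXCL14, SLC6A13 and AOC3, which are among the largest rises. The same held for 5 of 21 named falls, TP63, OVOL2, RIN2, GAS1 and CXCL8.

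In the called genes the 2 cell states moved in the same direction. Of the 573 rises 515 (89.9%) and of the 1110 falls 968 (87.2%) were past 1.2 in each state alone, and 0 had opposite signs. Since both states enter the call, this is a description of its makeup. By the same thresholds on 2 against 2 libraries, 105 of the rises and 243 of the falls were called in both states, and 372 (64.9%) and 631 (56.8%) in neither. One fall had at most 3 counts in each TAM and TAM + TPL library and so rests on NT cells. A test of the difference itself, the interaction of TPL with the state, had 28 genes at an adjusted p of at most 0.05 (0.165% of those tested). Of these 0 were among the calls, and 64 of the rises and 149 of the falls had an unadjusted p below 0.05. A difference between states adds to the residual of the common fit, which works against a call. The 0 is thus partly built in and says nothing about agreement of the states. FST, a secreted antagonist of activins, fell by 3.84 in the common contrast at an edgeR adjusted p of 0.0018, which missed the threshold.

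**Figure D5:**
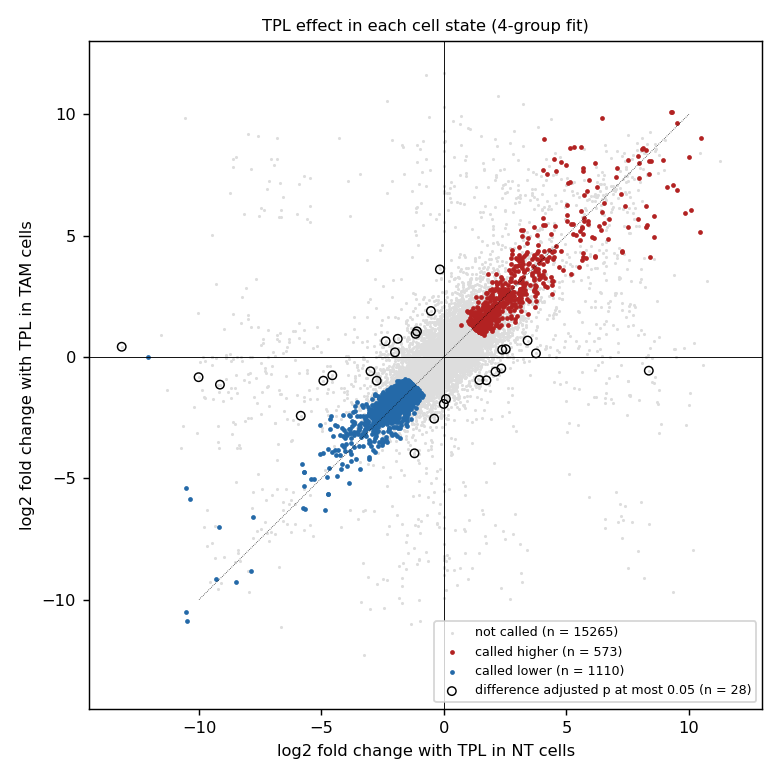
Log2 fold change of TPL in TAM cells (y) against that in NT cells (x), 1 point per gene, with genes called in the common contrast coloured by direction and a circle around each of the 28 with an interaction. Nearly all called genes lie in the quadrants of equal sign, and 1 fall has no change in TAM cells, where it had at most 3 counts per library.

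The errors rest on 5 residual degrees of freedom, and a biological coefficient of variation of 0.338. Called in each of the 8 fits with 1 library left out were 194 rises (33.9%) and 491 falls (44.2%), and all 1683 kept their sign. Of the 42 named genes DNAJB5-DT and H2BC6 kept their call in none of these fits, CXCL14 in 1, ACTB, OVOL2 and TUBA1C in 2, CKM in 6 and HSPA8 in 7.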

How the data were processed

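RNA-Seq was measured in 8 cultures of MCF10A-ErSrc cells (NT and TAM, DMSO or 125 nM TPL for 4 h, 2 biological replicates per group). Groups were taken from the sample titles, in which T after NT or alone stands for TPL or TAM. For the expected counts, the authors selected poly-A RNA, mapped the reads to transcripts (Bowtie2) and let RSEM estimate a number of reads for each gene, deposited unscaled. RSEM also gave the deposited FPKM, scaled by the authors to effective transcript length and mapped reads. RNAPII peaks were called by the authors on hg19, with 1 list deposited per group as starts and ends and no score. 0 columns of values were left without a sample.

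Entries absent from a file were taken as 0. Of 23604 entries, 21077 matched a symbol through the gene ID, 2384 by RefSeq accession and 23 by transcript accession, and 120 were not matched. After rounding, the expected counts went into edgeR 4.0.16 under R 4.3.3 (filterByExpr, TMM scaling, quasi-likelihood test, Benjamini-Hochberg adjustment) with cell state and agent as terms. The common dispersion was 0.114 with a median of 3.07 prior degrees of freedom. Genes were called at an adjusted p no higher than 0.001 and 1.2 or more on the log2 scale in either direction. The interaction came from a fit of the 4 groups, called at an adjusted p of 0.05. On simulated data the test called 37.6% of genes changed 4-fold, 58.3% of those changed 8-fold and 1 of 16250 unchanged genes, out of 16439. These rates cover only the 93 and 96 changed genes, in both directions, that passed the count filter there. Changed genes lost at the filter are not counted in them. In the real libraries 24.6% of genes were higher and 25.2% lower at an edgeR adjusted p of at most 0.05. The simulated rates need not carry over. Shares have Wilson 95% intervals, which cover counting error only. At 2 cultures per group, the p-values measure the spread between these cultures. Summaries were made in Python 3.11.15 (scipy 1.17.1, pandas 2.3.3, numpy 2.4.6) and plots with matplotlib 3.10.9.

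Named genes were calls with a single entry per symbol, a mean of at least 3 FPKM and no overlap between the TPL and DMSO libraries. In each direction these were the 12 largest fold changes, the 6 highest means and the 4 smallest p. List examples are members with a mean of at least 1 FPKM and the smallest or largest p, besides calls. Genes outside this rule, such as TNFAIP2, NFKB2, MYC, FST, MCL1 and ERCC3, were chosen after their values were seen. The comparison, the 24 gene lists and the tests were chosen with earlier results of these data known. Positions are those of GENCODE release 44 placed on build 37 (hg19), and promoters are from RefSeq on GRCh38.p14. A promoter was held for 72.9% of the rises, 80.9% of the falls and 78.0% of the genes tested, so a comparison of motif shares between them is void and none is given.

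The alternatives were DESeq2 1.42.0, 4 other scalings, 2 filters, other thresholds, a replicate block, no cell state term, averaged state effects, summed entries, limma 3.58.1 on log2(FPKM + 1) and log2(FPKM + 0.1), and leaving out each library. Tests on single-entry symbols, on thinned libraries, with 1 FPKM in place of 10 counts and without each library for the number of genes detected were added after seeing the data.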

Additional observations from a re-analysis of the deposited data

Results flagged for a closer look

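In 90 sets of 4 libraries, the levels of the named genes and of the library measures within DMSO or within TPL, the highest or lowest library stood apart from the rest in 5, where chance sets apart about 1 in 20. The value given is the gap to the nearest library divided by the whole range of the set. For CXCL14 in DMSO it was 1, since the second TAM library had 0.18 FPKM and the other three had 0. For H2BC6 in DMSO it was 1 as well, with 0.32 FPKM in the first TAM library and 0 elsewhere. Both rest on 3 reads or fewer. For TP63 in DMSO it was 0.896, as the first NT library had 13.2 FPKM and the others 23.0 to 24.2. For the ribosomal RNA entry RNA5-8SN5 it was 0.86 in TPL, where the first NT + TPL library was lowest at 632 FPKM, and 0.839 in DMSO, where the first TAM library was highest at 184 FPKM. Leaving out any of these libraries kept the direction of each gene.

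The effect of TPL differed between NT and TAM cells in 28 genes by the interaction test (edgeR, adjusted p of at most 0.05). KRT6B, a keratin of stressed epithelium, had 151 and 170 FPKM in NT and 7.36 and 6.30 in NT + TPL, but in TAM cells 85.1 and 87.3 without TPL and 52.8 and 52.6 with it (edgeR adjusted p = 0.0029). SOCS3, a feedback inhibitor of STAT3 signalling, went from 268 and 222 FPKM in TAM to 14.0 and 18.2 in TAM + TPL, and from 12.8 and 14.4 in NT to 6.15 and 5.71 in NT + TPL. PLEKHA6 had 35.9 and 39.0 FPKM in NT and 39.1 and 28.1 in NT + TPL, while its TAM libraries had 2.73 and 1.94 FPKM with DMSO and 33.9 and 24.8 with TPL. ID3, the only member of a gene list among the 28, fell in NT cells from 40.4 and 40.2 to 18.6 and 17.7 FPKM and was higher with TPL in TAM cells, at 5.60 and 5.24 against 2.61 and 2.80. MST1R, EED, EGLN3, MOB1A and TOGARAM1 have several entries per symbol, and their values are uncertain. A gene whose effect differs between states has a larger residual in the common fit by construction.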

How the results depend on the processing

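No gene called higher was called lower, or the reverse, under the alternatives compared gene by gene, which leave out summed entries. Genes called higher numbered 573 and varied with the tool: 1562 with DESeq2, 367 with equal GAPDH, 1216 with entries of one symbol summed and 1985 at an adjusted p of 0.05, where falls numbered 1921 in place of 1110. With single-entry symbols only, an alternative chosen after seeing the data, 1108 were higher and 1467 lower, with a common dispersion of 0.0411 and 6.97 prior degrees of freedom in place of 0.114 and 3.07. With the replicate block, 328 rises and 812 falls were called. No source ties same-numbered replicates to one another, and their deviations from the group means correlated at between -0.20 and 0.08.

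Leaving out 1 library gave 236 to 377 rises, over 1.5 times fewer for each of the 8, and 570 to 891 falls, over 1.5 times fewer without either NT, TAM or TAM + TPL library. The cause was not tested beyond the smaller number of samples. The 28 genes with an interaction became 530 with DESeq2, 2 with equal GAPDH, 45 with no filter, 86 with at least 10 counts in every library, 1 with the replicate block, 134 with summed entries, 136 with single-entry symbols and 1 to 51 without a library. It was 2, 3, 1, 2, 2 and 3 without NT 1, NT 2, TAM 1, TAM 2, TAM + TPL 1 and TAM + TPL 2, and 51 without NT + TPL 1. Limma, no state term, averaged effects and other thresholds do not apply to it. The excess of genes detected with TPL was 812 at 1 FPKM and 829 to 931 without a library.

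Of 992 alternative values of the 42 named genes, 930 kept direction and call and 62 only the direction, 44 of them without a library. CSF3, HSPA8, MT1E, TUBA1C and ACTB lost the call with no cell state term, and CKM, DNAJB5-DT, CXCL14, H2BC6, OVOL2 and TUBA1C with the replicate block. Also, 1 named gene lost it with each of DESeq2, its size factors in edgeR, library size alone and upper quartile scaling. The same count held for the filter at 10 counts and for each limma fit. At this depth and number of cultures, genes near 0 in DMSO show no fall, and a missing call does not show that a gene did not change.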

Other observations

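HBEGF, a ligand of the EGF receptor, was the single rise among 9 tested genes of the EGFR family and its ligands (11.1%, all genes 3.38%). It had 13.9 and 9.30 FPKM in NT, 7.60 and 5.32 in TAM, 129 and 99.5 in NT + TPL and 81.2 and 69.6 in TAM + TPL, a log2 fold change of 3.39 (SE 0.189; edgeR adjusted p = 1.6e-05). EREG, another ligand, went the other way, from between 12.5 and 14.1 FPKM to between 3.02 and 5.12, while TGFA and BTC had log2 fold changes of 0.03 and 0.21. Called lower was 11.1% of that list, beside 6.55% of all genes. Among 11 tested inhibitors of differentiation and SMAD repressors, SKI was called higher (1.24) and TGIF1 and TGIF2 lower (-1.87 and -2.16), with SKIL and ID3 at 0.19 and -0.24. The calls were 9.09% and 18.2% of the list, beside 3.38% and 6.55% of all genes. Among 19 clock genes CRY2 was higher (5.26%, all genes 3.38%) and BHLHE40 and NR1D1 lower (10.5%, all genes 6.55%). The log2 fold changes were 2.07 for CRY2 and -3.08 for BHLHE40. Shares in lists this small rest on very few calls.

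Of 28 genes of mitosis and G2/M, NUSAP1, a spindle protein, was the only call (3.57% higher, all genes 3.38%). It had 4.28 to 13.6 FPKM in DMSO and 16.7 to 29.5 in TPL. The median of that list was -0.51, with 0.12 in NT and -0.69 in TAM cells, a difference that was not tested. Of 17 heat shock genes DNAJB1 and HSPA8 fell (11.8%, all genes 6.55%), and HSPA1A and HSP90AA1 had -0.07 and 0.06. Of 31 proteasome subunits 0 were called at the thresholds used with edgeR, and 2 had a higher and 6 a lower level at an adjusted p of at most 0.05, which 24.6% and 25.2% of all genes had. Of 16 snoRNA host and nuclear noncoding genes SNHG15 and SNHG3 fell (-1.57 and -1.21), which is 12.5% beside 6.55% of all genes. Of 417 tested ZNF genes 16 were called higher and 20 lower, shares of 3.84% and 4.80% beside 3.38% and 6.55% of all genes. ZNF639 and ZNF692 fell by 2.28 and 1.91, and ZNF514 had -0.01. The signs of the medians of the heat shock, proteasome, snoRNA and ZNF lists turned with the scaling.

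Shorter genes tended to higher fold changes, with a Spearman correlation of -0.11 across 16948 genes, which are not independent. The difference between replicates of 1 group gave between -0.32 and 0.24 against the same length.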
